A study of Mus musculus with 4 samples.

Results

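Clustered replication-dependent histone genes were examined in ribosome profiling (Ribo-seq) of primary myoblasts of the mouse, which descend from muscle stem cells in culture. The 67 genes were the protein-coding rows of the deposited table, out of 55573 rows in all, whose name begins with Hist1h, Hist2h, Hist3h or Hist4h. They comprised 6 linker histone (H1), 18 H2A, 18 H2B, 12 H3 and 13 H4 genes. The rule read gene names and gene classes. Ribo-seq reads the stretches of mRNA that a ribosome shields from nuclease, so a read reports a ribosome on a transcript. Myoblasts came from the hind limbs of 3-week-old mice and were collected on Day 2 of proliferation in medium with FGF. The 2 WT libraries, WT1 and WT2, came from control mice. Their genotype is given as Pax7CreERT2/+ in one place and as floxed eIF5A alleles without the driver in another. The 2 libraries labelled KO, KO1 and KO2, came from Pax7CreERT2/+; eIF5A f/f mice given tamoxifen, in which Cre acts only in Pax7-expressing cells. The translation factor eIF5A is the product of the deleted gene, and how many animals stood behind a library was not given in the sources used here.

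Replication-dependent histone genes supply the proteins that package newly made DNA. H2A, H2B, H3 and H4 form the nucleosome core, and H1 binds the linker DNA between nucleosomes. Most of these genes lie in tandem clusters and lack introns. Their mRNAs peak in S phase and typically end in a conserved stem-loop in place of a poly(A) tail, which the stem-loop binding protein Slbp recognises. Replacement variants, such as H3.3, are encoded elsewhere by polyadenylated mRNAs and are made throughout the cell cycle.

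The Hist1 cluster on chromosome 13 (GRCm38, from 21715763 to 23934851) held 54 of the 67 genes and 92.0% of their reads. The Hist2 cluster on chromosome 3 (96219865 to 96270132) held 10 genes and 3.79% of the reads, and Hist4h4 on chromosome 6 (136801553 to 136804415) alone held 4.22%. The 2 Hist3 genes on chromosome 11 (58948920 to 58956830) had no read.

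A stem-loop of 16 bases, with a stem of 6 base pairs and a loop of 4 bases, was searched for. The search covered the transcript strand within 100 bases after the stop codon of GENCODE transcripts. Its pattern did not require every stem base to pair. The stem-loop was present in 46 of the 54 histone genes whose transcript model continues past the stop codon (85.2%). Of 20982 other protein-coding genes 25 had it (0.119%), among them the histone gene H2afx. In the 46 genes it began 21 to 58 bases after the stop codon, with a median of 31. Of the 46 elements, 26 shared a single 16-base sequence, and 8 different sequences were found. The models of the other 13 histone genes end at the stop codon. Among genes without the element, the models of Hist1h2af, Hist1h2ah and Hist2h3b continue for only 1, 2 and 37 bases. Those of Hist2h2be, Hist1h2br and Hist1h2bq continue for 2192, 1803 and 1608. To show how alike the transcript ends are across types, the element of the most-read gene of each type with the element and 5 bases on either side in its model is given 5′ to 3′, with the stem-loop in capitals.

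Hist1h1d (H1): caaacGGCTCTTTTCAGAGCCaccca
Hist1h2ag (H2A): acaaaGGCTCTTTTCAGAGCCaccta
Hist1h2be (H2B): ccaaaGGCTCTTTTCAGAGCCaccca
Hist1h3c (H3): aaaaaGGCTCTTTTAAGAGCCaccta
Hist1h4d (H4): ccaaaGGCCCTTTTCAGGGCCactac

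In GRCm38 these lie in the 3′ untranslated part of the transcripts at chr13:23555782-23555807 on the plus strand for Hist1h1d, chr13:22042478-22042503 on the minus strand for Hist1h2ag and chr13:23585526-23585551 on the minus strand for Hist1h2be. The Hist1h3c element lies at chr13:23745042-23745067 on the minus strand and that of Hist1h4d at chr13:23581945-23581970 on the plus strand. No element was found in the models of Hist1h1a, Hist1h1b and Hist1h2bc, 3 of the 8 most-read genes. The Hist1h1b model has no base after the stop codon and that of Hist1h1a has 48, whereas the Hist1h2bc model continues for 742 bases.

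Coding sequences were so alike that a ribosome footprint often cannot be given to a single gene. The 67 genes encode 31 different proteins, and the 13 H4 genes all encode the same protein of 103 residues. Of all 29-base windows in a gene's coding sequence, the share found in no transcript of another gene on either strand had a median of 11.6% over all 67 genes. For the H1 genes the median was 82.3% (range 64.4% to 100%), and for H2A, H2B, H3 and H4 it was 5.66%, 11.7%, 8.29% and 19.9%. The same stretch of H4 coding sequence, bases 10 to 39 counted from the A of the start codon, shows how genes for an identical protein can be told apart or not. Capitals mark the bases that differ from Hist1h4d, the most-read H4 gene.

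Hist1h4d: cgcgggaaaggcggcaagggtcttggtaag
Hist4h4: cgAggAaaaggcggcaagggtctGggGaaA
Hist2h4: AgAggAaaGggTggAaagggtctAggCaag
Hist1h4m: cgTggCaaaggAggAaaAggCctGggCaaA
Hist1h4n: cgTggCaaaggAggAaaAggCctGggCaaA

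The stretches lie in coding exons at chr13:23581611-23581640 (plus strand), chr6:136804341-136804370 (minus), chr3:96263266-96263295 (minus), chr13:21811793-21811822 (plus) and chr13:21832120-21832149 (minus), in the order printed. Over its 309 coding bases Hist4h4 differed from Hist1h4d at 40, and 98.2% of its coding windows were its own. Hist1h4m and Hist1h4n were identical over the whole coding sequence, so neither had a coding window of its own. Their reads over the 4 libraries were 31 and 4. Hist1h2ap and Hist1h2ao, also identical in coding sequence, had 60 and 0 reads. How the study's counting divided such reads was not given in the sources used here, so values of single core histone genes are uncertain and sums over a type were used beside them. Sums would still lack any reads that the counting dropped.

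Depth was low. The deposited values were RPKM, read numbers divided by gene length in kilobases and by a library-size factor, from which whole reads were recovered. The libraries held 642429 to 704006 gene-assigned reads, of which 33.9% to 65.4% fell on protein-coding genes, and the 2 WT libraries had the lowest shares. For a gene of 1 kb, 3 reads, the floor used here, were worth an RPKM of 3.31 to 6.37. Eif5a had 50 reads in WT1, 73 in WT2, 130 in KO1 and 114 in KO2, which is an RPKM of 34.9, 65.2, 60.3 and 59.4. The KO-labelled libraries thus did not lie below the WT libraries in the gene-level value of the targeted gene (log2 difference 0.32 ± 0.48 SE, limma adjusted p = 0.839), which does not resolve the deleted part. WT1 stood apart. The differentiation factor Myog had 82 reads there, 3 in WT2, 1 in KO1 and 2 in KO2.

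The histone genes drew 2585 reads over the 4 libraries, and 54 of the 67 had at least 1. WT1 had 396 of these reads, WT2 558, KO1 919 and KO2 712. As a share of reads on protein-coding genes this was 0.147% in WT1 (95% Wilson interval 0.133% to 0.162%), 0.256% in WT2 (0.236% to 0.279%), 0.200% in KO1 (0.187% to 0.213%) and 0.185% in KO2 (0.172% to 0.199%). Both KO-labelled libraries lay between the WT libraries, whose intervals did not overlap each other. The share averaged 0.202% ± 0.0772 (SD, n = 2) in WT and 0.192% ± 0.0105 (SD, n = 2) in the KO-labelled libraries.

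Reads were concentrated in few genes. The 6 most-read genes, Hist1h1b, Hist1h1a, Hist1h1d, Hist1h4d, Hist1h1c and Hist1h1e, took 53.6% of all histone reads, and the 20 most-read took 86.2%. The 6 H1 genes alone took 45.5%, H4 21.2%, H2A 18.1%, H2B 11.3% and H3 3.95%. H1 coding sequences are longer than those of core histones, with a median of 648 bases against 387, and less of their sequence is shared.

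**Figure D1:**
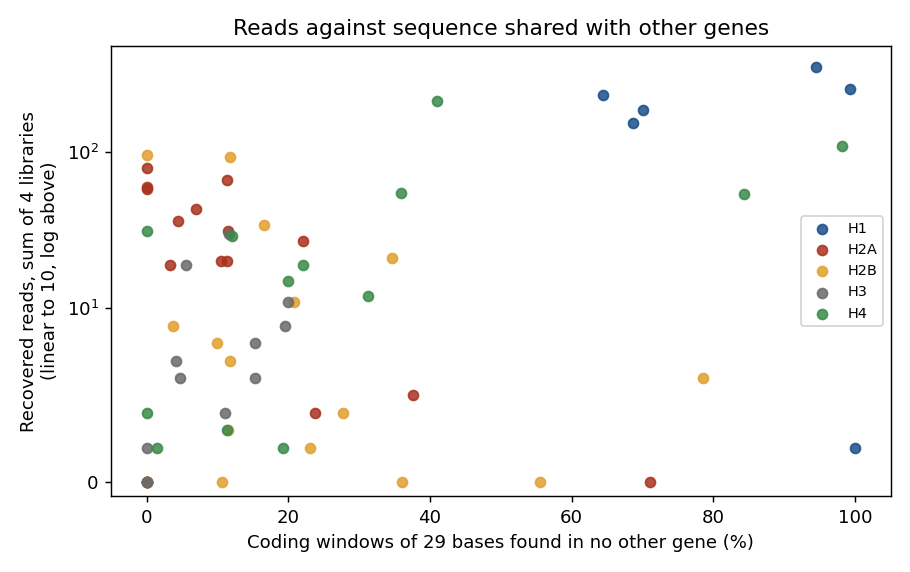
Recovered reads of each of the 67 histone genes, summed over the 4 libraries (vertical axis, linear to 10 and logarithmic above), against the percentage of its 29-base coding windows found in no other gene (horizontal axis), coloured by type. The 11 genes above 50% include all 6 H1 genes, and 9 of the 16 genes at 0% had no read.

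Genes with no coding window of their own were often at 0 reads. Of the 16 such genes, 9 had no read and the median was 0, whereas the 28 genes with up to 20% had a median of 10 reads, the 12 genes above 20% and up to 50% a median of 11.5 and the 11 genes above 50% a median of 109. Across the 61 core histone genes Spearman's rho between reads and the unique coding share was 0.19, a description over genes that share sequence and libraries. Of the 7 genes with reads but no coding window of their own, 5 had more reads than these medians of 10 and 11.5, namely Hist1h2bc (95), Hist1h2ag (79), Hist1h2ap (60), Hist1h2ad (58) and Hist1h4m (31). The share of windows of the whole transcript found in no other gene was 66.4%, 20.1%, 6.61%, 31.6% and 7.75% in these genes. The 5 genes without a unique window anywhere in their exons, Hist2h2aa1, Hist2h2aa2, Hist2h2bb, Hist2h3c1 and Hist2h3b, had 0 reads.

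Genes of germ-cell histones were at or near 0 although their sequences are distinctive. Hist1h1t, the testis-specific linker histone, had 1 read in each WT library and none in either KO-labelled library, with 100% of its coding windows its own. Hist1h2aa and Hist1h2ba, which encode the testis-specific H2A and H2B, had 71.0% and 55.5% unique coding windows and no read in any library, where up to 3 reads are allowed by a count of 0. Together with Hist1h2bl and Hist3h2ba they were the 4 of 13 genes at 0 reads that had some unique coding sequence.

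In the linker histone group, levels per kilobase depended on the length used. The gene length that the study divided by ran from 741 to 7425 bases for the 6 H1 genes, whose coding sequences are all between 627 and 669 bases long. Hist1h1d had 47, 59, 71 and 54 reads in WT1, WT2, KO1 and KO2, but an RPKM of only 10.5, 16.9, 10.5 and 9.00, since its gene length was 7425 bases. Divided by coding length, on the same library scale, its levels were 118, 189, 118 and 101. The mean of its 4 libraries was thereby 131 in place of 11.7, beside 139 for Hist1h1a.

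On the coding scale the order of the H1 genes by their mean over the 4 libraries was Hist1h1b (176), Hist1h1a (139), Hist1h1d (131), Hist1h1c (111), Hist1h1e (91.8) and Hist1h1t. Neighbours among the first 5 overlapped throughout. Hist1h1b ran from 91.7 to 311, Hist1h1a from 98.6 to 167, Hist1h1d from 101 to 189, Hist1h1c from 48.5 to 143 and Hist1h1e from 33.9 to 152. Only Hist1h1t, at 2 reads in all, lay below the others in every library.

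**Figure D2:**
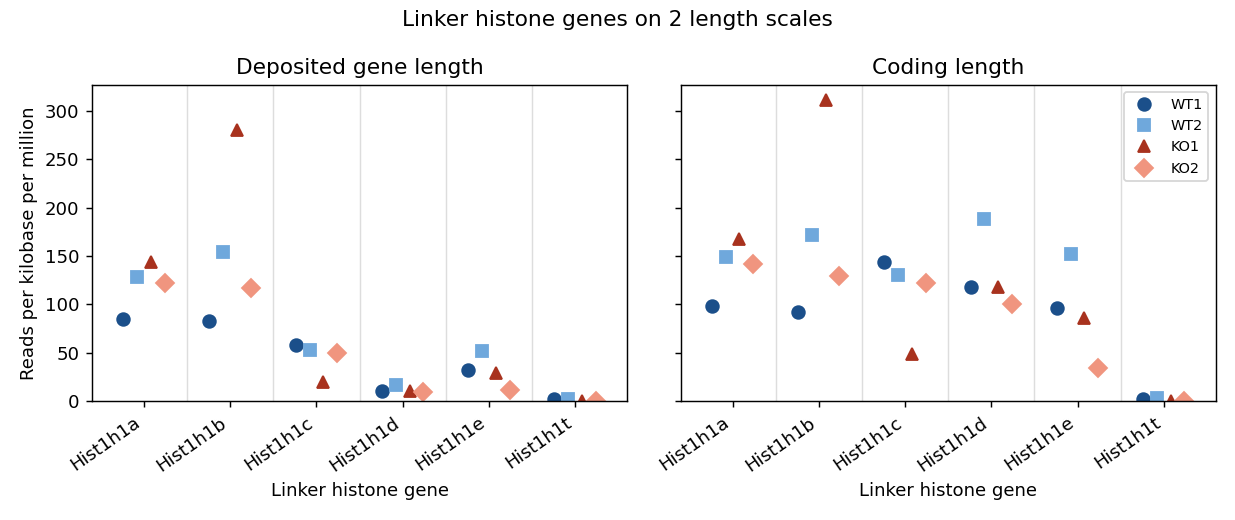
Level of each of the 6 linker histone genes in each library, as RPKM with the deposited gene length (left) and with the coding length (right). Points are single libraries of WT (blue) and of the group labelled KO (red). Hist1h1d moves from 9.00 to 16.9 on the left to 101 to 189 on the right, and Hist1h1b in KO1 is the highest point on both sides.

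Hist1h1b had 37 reads in WT1, 54 in WT2, 189 in KO1 and 70 in KO2. Its RPKM was 82.6, 154, 280 and 117, so that KO1 was the highest library and KO2 lay between the WT libraries. The log2 difference, KO minus WT, was 0.68 ± 0.64 SE with an adjusted p of 0.736 (limma over all genes tested). Within the H1 reads of KO1, Hist1h1b made up 43.3% (95% Wilson interval 38.8% to 48.0%), against 17.1%, 22.0% and 25.2% in WT1, WT2 and KO2.

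Hist1h1a reads were 38, 45, 97 and 73, and its RPKM of 85.1, 129, 144 and 122 overlapped between the groups (log2 difference 0.34 ± 0.48 SE). Without WT1 its log2 difference was 0.041 and without WT2 0.64. Hist1h1e had 38, 47, 51 and 18 reads. Both of its RPKM values in the KO-labelled libraries, 29.1 and 11.5, were below both WT values, 32.7 and 51.7, with a log2 difference of -1.11 ± 0.57 SE and an adjusted p of 0.680. Hist1h1c had 55, 39, 28 and 63 reads. Its RPKM was 58.5 and 53.1 in WT and 19.8 and 50.0 in the KO-labelled libraries, so the groups did not overlap either, but KO2 was only just below WT2 (log2 difference -0.80 ± 0.55 SE, adjusted p = 0.698). Hist1h1e overlaps the span of Hist1h2be on the same strand, and reads in exons that they share cannot be told apart.

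As a group, H1 took 54.5% of histone reads in WT1 (49.6% to 59.4%), 43.9% in WT2 (39.8% to 48.1%), 47.4% in KO1 (44.2% to 50.7%) and 39.0% in KO2 (35.5% to 42.7%), with 95% Wilson intervals. WT1 and KO2 were the extremes. The groups overlapped in this share, with means of 49.2% ± 7.52 (SD, n = 2) in WT and 43.2% ± 5.94 (SD, n = 2) in the KO-labelled libraries. The summed H1 RPKM was 271, 407, 484 and 309 in WT1, WT2, KO1 and KO2. Its mean was 339 ± 96.2 (SD, n = 2) in WT and 397 ± 124 (SD, n = 2) in the KO-labelled libraries, a log2 ratio of 0.23, which is smaller than the spread between replicates (0.44 on the log2 scale). Divided by coding length instead, a setting added once the data had been seen, the log2 ratio was -0.09.

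The core histones varied most between the WT libraries. H3 genes had 4 reads in WT1, 29 in WT2, 38 in KO1 and 31 in KO2, and no H3 gene of WT1 exceeded the floor of 3 reads. Their summed RPKM was 7.20, 101, 73.3 and 71.1. H2A genes had 41, 115, 157 and 155 reads and a summed RPKM of 124, 477, 305 and 376. For both types WT1 was the lowest library and WT2 the highest, with both KO-labelled libraries between them.

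H4 genes had 82, 121, 178 and 166 reads and a summed RPKM of 140, 239, 223 and 214, in the same order of libraries. H2B genes had 53, 48, 110 and 82 reads and a summed RPKM of 80.8, 101, 119 and 110. H2B was the only type whose groups did not overlap, at 91.1 ± 14.6 (SD, n = 2) in WT and 115 ± 6.45 (SD, n = 2) in the KO-labelled libraries, a log2 ratio of 0.33. As a share of protein-coding reads this was not so, since KO2 lay between WT1 and WT2.

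The log2 ratio of the group means was 0.18 for H2A, 0.41 for H3 and 0.20 for H4, each below the spread between replicates on that scale (0.98, 1.91 and 0.39). For H2B the ratio of 0.33 was above its spread of 0.17, and for H1 the ratio of 0.23 was below its spread of 0.44. Without WT1 the ratios were -0.49, -0.49 and -0.13, and without WT2 they were 1.45, 3.33 and 0.64. The H2B ratio was 0.18 without WT1 and 0.51 without WT2. Over all 67 genes the ratio was 0.23, and it was -0.22 without WT1 and 0.87 without WT2.

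**Figure D3:**
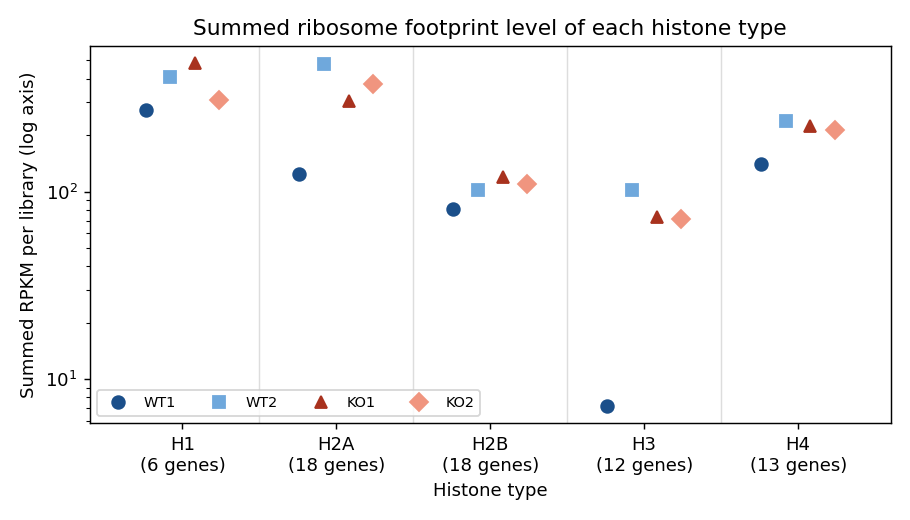
Summed RPKM of all genes of each histone type (logarithmic vertical axis) in the 2 WT libraries (blue) and the 2 KO-labelled libraries (red). WT1 is the lowest point of every type and lies at 7.20 for H3, while the other 3 libraries lie between 71.1 and 101 there.

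Core histones and S-phase genes were both lowest in WT1. The core histones made up 0.0669% of protein-coding reads in WT1 (0.0578% to 0.0774%), 0.144% in WT2 (0.129% to 0.161%), 0.105% in KO1 (0.0960% to 0.115%) and 0.113% in KO2 (0.103% to 0.124%). A list of 26 S-phase genes was read beside them, most of whose products copy DNA or make nucleotides. It also held Slbp, which is in the list on histone mRNA processing too, and Mcm2, which is in the list on histone chaperones too. The S-phase list had 0.0754% (0.0657% to 0.0865%), 0.192% (0.175% to 0.211%), 0.217% (0.204% to 0.231%) and 0.208% (0.194% to 0.223%) of those reads. The WT1 intervals of both lists did not reach those of the other libraries. Shares of H1 reads, 0.0803%, 0.113%, 0.0948% and 0.0722%, did not follow this order, with KO2 the lowest. By summed RPKM, however, WT1 was the lowest library for H1 too, at 271 against 407, 484 and 309. Summed RPKM of the S-phase genes was 78.4, 219, 250 and 237, a log2 ratio of the group means of 0.71 that was 0.15 without WT1 and 1.64 without WT2. Fewer cells in S phase and less histone mRNA per cell cannot be told apart in bulk samples, and the part of S phase or of differentiation in the histone values of WT1 was not tested.

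Cells were checked against marker genes. Myod1, the myogenic factor, had 157, 103, 82 and 120 reads, and Pax7, the stem cell factor, 30, 10, 5 and 7. The summed RPKM of 8 myoblast markers was 242 and 194 in WT and 118 and 130 in the KO-labelled libraries, with 7 of the 8 lower on the fitted scale. Fibroblast markers were also abundant, with a summed RPKM of 458, 267, 763 and 338 for 7 genes, led by Dcn. Endothelial markers (4 genes) summed to 102, 95.1, 131 and 106. Macrophage and smooth muscle markers (4 genes each) summed to 17.1 to 25.6 and 47.5 to 98.9, with the smooth muscle marker Tagln at 0 reads in every library. Markers of several cell types were thus read in these cultures, and the part of cell composition in the histone values was not tested.

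**Figure D4:**
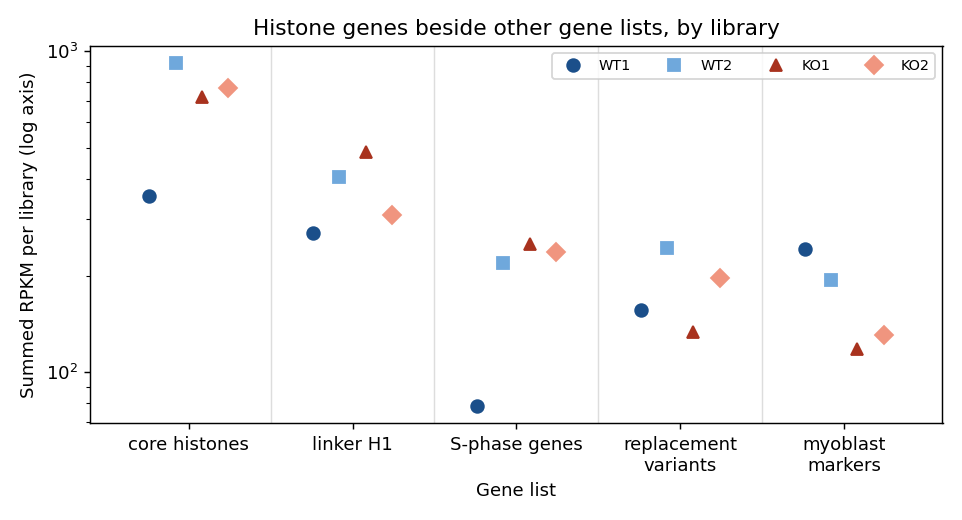
Summed RPKM (logarithmic vertical axis) of core histones, linker histones, S-phase genes, replacement histone variants and myoblast markers in each library of WT (blue) and of the group labelled KO (red). WT1 is the lowest library for core histones (353), linker histones (271) and S-phase genes (78.4) and the highest for myoblast markers (242).

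To ask whether single histone genes differ between the groups, limma was fitted to log2(RPKM + 1) of the 11363 genes whose mean RPKM reached 1 or more, among them 51 of the 67 histone genes. None of the 51 passed an adjusted p of 0.05 by limma, where 0.106% of all genes tested did. By limma on recovered reads with voom weights none passed either. At an unadjusted p under 0.05, 5 histone genes had higher and 2 had lower values in the KO-labelled libraries, against 2.86% and 4.46% of all genes tested. All 7 also differed by at least 2-fold on this scale, so that 9.80% of the 51 passed both criteria upward, where 2.67% of all genes did, and 3.92% downward, where 4.29% did. Scaled to total reads, where the median over all genes was 0.47 in place of 0.00, 11 passed upward and 1 downward, where 13.9% and 1.48% of all genes did. After quantile normalization 5 passed upward and 1 downward, where 3.45% of all genes did in each direction. Each of the 7 genes that passed on the deposited RPKM scale had 12 reads or fewer over the 4 libraries, and of the 26 histone genes with 20 reads or more, 0 passed either way on that scale with no further correction, the lowest unadjusted p among them being 0.0636. Other settings gave other counts for these 26. With the GC and length trend removed 8 passed upward, where 2.91% of the 9869 genes in that fit did. These 8 were Hist1h2ac, Hist1h2ae, Hist1h2an, Hist1h2ap, Hist1h2bb, Hist1h3c, Hist1h4c and Hist1h4m. With total reads 5 passed upward, where 13.9% of all genes did. A replicate block gave 3 upward (Hist1h2bb, Hist1h4c and Hist1h4m), where 2.78% of all genes passed. Voom gave 1 upward and 1 downward, where 3.63% and 7.15% of all genes passed. Which of the 26 passed also changed when WT1, WT2 or KO2 was left out.

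Hist1h2bn, an H2B gene, had 0 reads in both WT libraries, 3 in KO1 and 4 in KO2 (adjusted p = 0.113). The H2A gene Hist2h2ab likewise had none in WT and 2 and 3 reads in the KO-labelled libraries (adjusted p = 0.357). For both genes the level in the KO-labelled libraries could hardly be told from the floor of 3 reads, and no fold is given. Hist1h4f had 1, 1, 7 and 3 reads, Hist1h3g 0, 1, 4 and 4, and Hist1h2bk 1, 0, 2 and 6, each with an adjusted p of 0.672. Leaving out 1 library moved the log2 difference of Hist1h4f from 1.35 to 0.85 (without KO1), of Hist1h3g from 2.13 to 0.97 (without WT1) or 3.30 (without WT2), and of Hist1h2bk from 2.19 to 1.11 (without WT2) or 1.41 (without KO2).

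The genes that were lower by these criteria were Hist1h2bg, an H2B gene with 3, 4, 1 and 0 reads (adjusted p = 0.538), and Hist1h2ak, an H2A gene with 1, 2, 1 and 0 reads (adjusted p = 0.672). Without KO2 the log2 difference of Hist1h2ak was -1.05 in place of -2.01. The reads of Hist1h2ak were at or below the floor in every library, and Hist1h2bg exceeded it in WT2 alone. Adjusted p-values are from limma with Benjamini-Hochberg adjustment over all 11363 genes.

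The fitted log2 differences of the 51 genes had a median of 0.20, against 0.00 for all genes tested, and 30 were above 0. Leaving out WT1 turned the median to -0.36, and leaving out WT2 raised it to 0.90. By type the median was -0.61 for H1 (6 genes tested), 0.75 for H2A (13), 0.41 for H2B (11), 0.69 for H3 (9) and -0.05 for H4 (12). Among H2A genes 10 of 13 were above 0, and among H1 genes 2 of 6. In 11 genes (21.6%) both values of the KO-labelled libraries were above both WT values, where 20.1% of all genes tested did so, and in 7 (13.7%) both were below, where 20.3% did. The upward share was near the background. Hist1h4n, with 1 read in each of the 4 libraries, was counted among the 7, since its RPKM differed by the library scale alone. With scaling to total reads the numbers were 22 and 5 of 51, where 41.4% and 7.87% of all genes were separated. After removal of a GC and length trend they were 17 and 3, where 20% of the 9869 genes tested were separated in each direction.

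**Figure D5:**
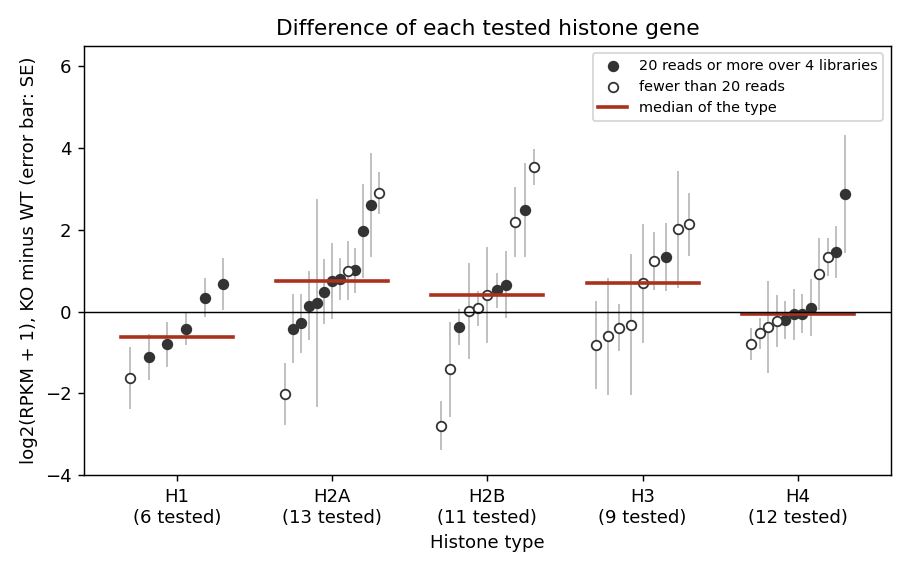
Fitted difference in log2(RPKM + 1), KO minus WT, of each of the 51 tested histone genes (points; error bars are the SE), by type, with the median of each type as a red line. Filled points had 20 reads or more over the 4 libraries. The points farthest from 0 are mostly open, and the H1 median lies at -0.61.

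Histone coding sequences are rich in G and C, with a median of 66.0% over the 51 genes against 53.2% over all genes tested. In 269 other protein-coding genes tested whose coding GC lay between the quartiles of the histone genes (63.2% and 67.5%), the median log2 difference was -0.53. With a trend on GC content and length removed, the median of the histone genes was 0.56, and 15 passed 2-fold with unadjusted p upward and 2 downward, where 2.91% and 3.33% of the 9869 genes in that fit did.

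Among the H4 genes, Hist1h4d had 38 reads in WT1, 51 in WT2, 67 in KO1 and 56 in KO2, which is 38.8% of all H4 reads. On the coding scale it had the highest mean of any of the 67 genes, 254, with values from 204 to 350. By deposited RPKM its mean was 69.1, below those of Hist1h1b (158) and Hist1h1a (120). Its RPKM of 55.4, 95.1, 64.9 and 60.9 overlapped between groups (log2 difference -0.20 ± 0.48 SE). Hist4h4, which has the most distinctive H4 coding sequence, had 12, 34, 33 and 30 reads. Its RPKM was 6.95, 25.2, 12.7 and 13.0, so the KO-labelled libraries lay between the WT libraries.

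Hist2h4 had 7, 11, 8 and 28 reads, with no separation of the groups. Hist1h4c had 10, 2, 23 and 20 reads, and its RPKM of 30.9 and 30.2 in the KO-labelled libraries was above 20.2 and 5.18 in WT (log2 difference 1.46 ± 0.64 SE, adjusted p = 0.675). Without WT1 the difference was 2.35 and without WT2 0.57. Hist1h4m, whose coding sequence is that of Hist1h4n, had 0, 5, 12 and 14 reads and showed the largest increase among genes with 20 reads or more (log2 difference 2.89 ± 1.45 SE, adjusted p = 0.676). With WT1 left out its log2 difference was 0.50, and with WT2 left out 5.27.

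H2B reads were led by Hist1h2bc with 30, 14, 29 and 22 and by Hist1h2be with 11, 16, 39 and 27, together 64.2% of H2B reads. WT1 was the highest library for Hist1h2bc, at an RPKM of 43.0 against 25.7, 27.7 and 23.6. Hist1h2be was at 4.10, 7.64, 9.67 and 7.52, with KO2 just below WT2. Hist1h2bj had 2, 9, 9 and 14 reads. Hist1h2bb, with 3, 0, 14 and 4 reads, had a log2 difference of 2.48 ± 1.15 SE (adjusted p = 0.676), which was 4.20 without WT1, 0.77 without WT2 and 1.71 without KO1, and its libraries overlapped, since KO2 at an RPKM of 9.75 was below WT1 at 9.80.

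H2A reads were spread over more genes. Hist1h2ag had 6, 27, 20 and 26 reads, Hist1h2ac 6, 10, 34 and 16, Hist1h2ap 5, 9, 29 and 17 and Hist1h2ad 6, 22, 9 and 21. Of these 4, only Hist1h2ap had both RPKM values of the KO-labelled libraries, 66.3 and 43.7, above both WT values, 17.2 and 39.6 (log2 difference 1.01 ± 0.55 SE, adjusted p = 0.690). Hist1h2ad was among the 3 largest decreases of genes with 20 reads or more, at -0.42 ± 0.84 SE, with KO2 above WT1. The others of these 3 were Hist1h1e and Hist1h1c.

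Hist1h2af had 0, 11, 0 and 25 reads, so that both libraries with replicate number 1 were at 0. Only 4.42% of its coding windows were its own. Hist1h2ai had 2, 12, 19 and 10 reads, Hist2h2ac 2, 9, 10 and 10, and Hist1h2an, the other of the 3 largest increases beside Hist1h4m and Hist1h2bb, 0, 3, 11 and 6 (log2 difference 2.60 ± 1.27 SE, adjusted p = 0.676, and 0.55 without WT1 or 4.65 without WT2). Each of the 18 H2A genes overlaps an annotated gene on the other strand, mostly a short miRNA model. The 22 such genes that overlap any histone gene had 11 reads in all, and since use of strand was not stated, reads from both strands cannot be told apart.

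Among the H3 genes Hist1h3c had the most reads, 1, 6, 13 and 10, and the rest had 19 or fewer over the 4 libraries. Replacement variants were compared beside them. H3f3b, which encodes H3.3, had 93, 162, 130 and 155 reads and an RPKM of 51.8, 116, 48.2 and 64.5 (log2 difference -0.47 ± 0.55 SE). The 12 clustered H3 genes together had 4, 29, 38 and 31 reads, fewer than H3f3b in each library. Their median share of unique coding windows was only 8.29%. How multiply mapped reads were handled was not given, so the clustered H3 sum may lack reads and no order of level is drawn. RPKM of the H3f3b gene, with a gene length of 2976 bases, and of the short clustered genes are divided by unlike lengths and were not set against each other. H1f0, the replacement linker histone, had 54, 31, 50 and 59 reads (log2 difference -0.27 ± 0.43 SE), and H2afy, which encodes macroH2A, 23, 19, 39 and 39 (0.19 ± 0.35 SE). Over all alternative settings the log2 difference of H1f0 ran from -0.48 to 0.33. Of 10 variants tested, none passed the adjusted threshold by limma and none had an unadjusted p under 0.05. The median log2 difference of the variants was 0.03, and it ran from -0.52 without KO2 to 0.25 without KO1, with -0.21 without WT1 and 0.02 without WT2.

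Genes that act on histone mRNA or protein were read from 4 other lists. In the S-phase list 25 genes were tested, 23 had a positive log2 difference, and the median was 0.87 beside 0.00 for all genes. Without WT1 the median was 0.35 with 16 of 25 above 0, and without WT2 it was 1.39 with 25 above 0. None passed the adjusted threshold by limma, 5 had an unadjusted p under 0.05 upward (2.86% of all genes did) and 15 had both values of the KO-labelled libraries above both WT values (20.1% of all genes did). Rrm1, a subunit of ribonucleotide reductase, had 12, 32, 124 and 93 reads (log2 difference 1.47 ± 0.53 SE, adjusted p = 0.672). The helicase subunit Mcm4 had 14, 15, 66 and 50 (1.20 ± 0.39 SE, adjusted p = 0.660), and cyclin A2 (Ccna2) 0, 3, 14 and 15. Without WT1 the log2 difference was 0.79 for Rrm1 and 1.01 in place of 1.69 for Ccna2.

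Rpa2, of the single-strand binding complex, had 3, 3, 10 and 26 reads, and Gins1, a partner of the helicase, 0, 2, 11 and 5. The log2 difference of Rpa2 was 1.36, or 0.70 without KO2, and that of Gins1 1.80, or 0.83 without WT1 and 2.76 without WT2. The polymerase clamp Pcna had 24, 52, 62 and 81 reads with a log2 difference of 0.31 ± 0.59 SE, and Rpa1 28, 45, 98 and 81 with 0.60 ± 0.46 SE. Without WT1 these were -0.40 for Pcna and 0.12 for Rpa1, and without WT2 1.01 and 1.08. The difference between the S-phase list and the core histone sum was not tested.

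Histone chaperones and chromatin assembly factors numbered 22 tested genes, with a median log2 difference of 0.48, 17 above 0, none past the adjusted threshold by limma and 1 with an unadjusted p under 0.05, upward (2.86% of all genes). In 12 of the 22 both values of the KO-labelled libraries were above both WT values and in 2 below (20.1% and 20.3% of all genes). The gene with the unadjusted p was Asf1b, an H3-H4 chaperone, with 1, 2, 17 and 10 reads (log2 difference 1.78 ± 0.46 SE, adjusted p = 0.608). Rbbp7, an H4-binding protein, had 45, 81, 200 and 208 reads (1.05 ± 0.54 SE), Npm1 64, 73, 220 and 161 (0.77 ± 0.45 SE) and Rbbp4 75, 87, 153 and 182 (0.34 ± 0.42 SE). Without WT1 these log2 differences were 0.46 for Rbbp7, 0.50 for Npm1 and 0.076 for Rbbp4, and without WT2 1.64 for Rbbp7 and 0.61 for Rbbp4.

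For histone mRNA transcription and 3′ processing 17 genes were tested, with a median of 0.47 and 15 above 0. The median was 0.22 with 14 above 0 without KO1. By limma none passed the adjusted threshold, and 2 had an unadjusted p under 0.05, Cstf3 (11, 2, 31 and 27 reads, log2 difference 1.34 ± 0.52 SE) and Cdk2 (6, 6, 30 and 21 reads, 1.02 ± 0.39 SE), both upward (2.86% of all genes) and with an adjusted p of 0.672. Without WT2 the log2 difference of Cstf3 was 0.72, and without WT1 1.97. In 8 of the 17 genes the values of the KO-labelled libraries were above both WT values and in 0 below, where 20.1% and 20.3% of all genes were. Cdk2 is the cyclin-dependent kinase of S-phase entry. The cleavage factor subunits Cpsf3 and Sympk had log2 differences of 0.47 ± 0.42 SE and 0.04 ± 0.40 SE, and Srrt, a cap-binding partner, 0.31 ± 0.39 SE. Cpsf3 had 0.15 without WT1 and 0.79 without WT2, Sympk -0.28 without WT2, and Srrt 0.12 without KO1.

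Histone mRNA turnover factors had a median of 0.07 over 9 tested genes (0.26 without WT1, 0.15 without KO2 and 0.0060 without WT2), with none past the adjusted threshold by limma and none at an unadjusted p under 0.05. Upf1, the helicase of mRNA decay, had 92, 47, 155 and 116 reads (0.33 ± 0.43 SE). Over all alternative settings its log2 difference ran from 0.037 to 0.93. The kinase Smg1 had 75, 38, 113 and 72 reads (0.06 ± 0.40 SE) and the uridylyl transferase Tut7 49, 18, 42 and 37 (-0.23 ± 0.44 SE).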

How the data were processed

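Per the methods of the study, the authors stalled ribosomes with cycloheximide, treated lysates with RNase I, removed rRNA and tRNA reads, aligned with TopHat2 and counted with HTSeq on Ensembl models (mm10, that is GRCm38). Tool versions, strand use and the handling of multiply mapped reads were not given in the sources used here. The table deposited by the authors held RPKM values. Each was multiplied by the gene length and divided by the smallest non-zero product of its library, which gave whole reads for 100% of values (within 0.001). Denominators were 471136 to 906990 reads.

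Labels gave 2 libraries per group, with nothing on separate animals, so p-values measure the spread between these libraries, which may be technical. The main test was limma 3.58.1 (R 4.3.3, trend, group only, two-sided) on log2(RPKM + 1) for genes whose mean RPKM reached 1 or more, adjusted by Benjamini-Hochberg over 11363 genes, with a threshold of 0.05. Fold changes on this scale understate low genes. A 2-fold change with unadjusted p under 0.05 follows the study's RNA-seq criterion. An exact permutation test of 2 against 2 cannot go below 0.333. Scripts were tested on simulated data. Intervals (95%, Wilson) and the floor of 3 reads cover counting error only, since reads carry no molecular identifiers. Sequences, coding lengths and windows of 29 bases came from GENCODE vM21 transcripts (GRCm38). Levels on the coding scale are all recovered reads of a gene, wherever they lay in it, divided by coding length and the same denominators. The genes and lists were chosen with earlier results of these data known. Named by rule were the 20 most-read histone genes, those with unadjusted p under 0.05, the 3 largest changes each way at 20 reads or more, and of each other list the 3 most-read genes and those with unadjusted p under 0.05. Hist1h3c, Hist1h2aa, Hist1h2ba, Hist1h1t and other genes named for their sequence or 0 reads were added after their values were seen. The alternatives were other scalings, filters, pseudocounts, a GC and length trend, voom, a replicate block, leaving out each library, and only genes with mostly unique windows over the whole transcript.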

Additional observations from a re-analysis of the deposited data

How the results depend on the processing

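With 2 libraries per group, few reads per gene and much shared sequence, single core histone genes limit what these data can show. No histone gene passed the adjusted threshold under any of the 15 alternatives run, and the median log2 difference moved by less than the spread between libraries (0.76) under each. It was -0.05 in genes with at least 50% unique windows over the whole transcript. With all libraries and genes it ran from 0.08 with voom to 0.66 with total reads, where all genes shifted by 0.47.

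The 7 histone genes past 2-fold and unadjusted p became 17 after removal of a GC and length trend, 12 with total reads, 4 with a pseudocount of 0.1 (7.84% beside 7.09% over the whole table), 3 with a mean RPKM of at least 5 (8.11% of the 37 tested, beside 8.51%), 3 with voom (5.88% beside 10.8%) and 0 among the 19 genes tested with mostly unique windows, where 5 were separated by group in place of 18. With total reads the log2 ratio of the summed level was 0.90 over all 67 genes. It was 0.87 for H1, 0.88 for H2A, 0.96 for H2B, 1.17 for H3 and 0.86 for H4. Restricted to mostly unique windows over the whole transcript, H3 keeps 1 gene, of 4 reads, and its ratio was -2.36. This gene, Hist1h3d, had only 11.1% unique coding windows. In the same restriction H2A with 4 genes had 1.01 in place of 0.18 and H4 with 7 genes 0.05 in place of 0.20. The cause of the other shifts was not tested.

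Leaving out each library in turn gave 4 to 15 genes past 2-fold and unadjusted p, which is 7.84% to 29.4% of the 51 tested beside 3.71% to 12.8% of all genes, and 27 to 37 separated by group, 52.9% to 72.5% beside 62.1% to 75.4% of all genes (with 1 library in an arm by construction). The highest count, 15, was without WT2, with 13 of them higher. The median ran from -0.36 to 0.90. Here the lone library is assumed to vary like the other group. The log2 ratio ran from -0.22 to 0.87 over all genes, -0.13 to 0.55 for H1, -0.49 to 1.45 for H2A, 0.18 to 0.51 for H2B, -0.49 to 3.33 for H3 and -0.13 to 0.64 for H4, the lowest without WT1 and the highest without WT2 for all but H1, whose lowest was without KO replicate 1. Genes whose sign changed had log2 differences of -0.59 to 0.18 (Hist1h4d), -0.92 to 0.80 (Hist4h4), -1.09 to 1.38 (Hist1h2ag), -1.50 to 0.67 (Hist1h2ad), -0.80 to 1.00 (Hist2h4), -0.65 to 2.15 (Hist1h2ai), -2.95 to 3.35 (Hist1h2af), -0.53 to 1.85 (Hist1h2bj), -0.69 to 1.67 (Hist2h2ac), -0.12 to 0.76 (Eif5a), -1.04 to 0.10 (H3f3b), -0.28 to 0.36 (Sympk), -0.19 to 0.31 (Smg1), -0.66 to 0.20 (Tut7) and -0.40 to 1.01 (Pcna). The differences kept their sign but moved by over 1.5 times in Hist1h1b (0.046 to 1.31), Hist1h1c (-1.45 to -0.15), Hist1h1e (-1.75 to -0.48) and Hist1h2ap (0.43 to 1.59), among others.

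Among other settings, total reads turned the sign of Hist1h1d (0.15), Hist1h4d (0.40), Hist4h4 (0.52), Hist1h2bc (0.22), Hist1h2ad (0.18), H3f3b (0.14), H1f0 (0.33) and Tut7 (0.23), none above the shift of all genes except Hist4h4. Removal of the GC and length trend turned Hist1h4d (0.11), Hist4h4 (0.20), Smg1 (-0.041) and Pcna (-0.036), protein-coding reads turned Hist2h4 (-0.014), Sympk (-0.064) and Smg1 (-0.040), and voom turned Hist1h2af (-0.20). No gene named by rule passed the adjusted threshold in any setting.

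Same-numbered libraries of the groups share only a number. The deviations of the numbered pairs had a correlation of 0.07 over 9877 genes. With the replicate block 9 histone genes (17.6%) passed 2-fold and unadjusted p beside 7.24% of all genes, 18 (35.3%) were separated beside 40.4% and the median stayed at 0.20, and 0 of all genes passed the adjusted threshold in place of 12. The replicate block with the GC and length trend removed gave 19 (37.3%) beside 7.26% of all genes, 16 of them higher, with log2 differences of 0.11 for Hist1h4d, 0.20 for Hist4h4, -0.041 for Smg1 and -0.036 for Pcna. Over all 11363 genes 79 passed the adjusted threshold with voom and 0 with a pseudocount of 0.1.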
